A study of Mus musculus with 6 samples.

Results

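The 4 non-coding RNAs followed here were Malat1, Rn7sk, Rn7s2 and Gm26244, each measured through 1 row of a table of 53546 rows of raw read counts per library. They were chosen by their counts, which are very high in some or all libraries, so their levels are a description and not a finding. Of the 6 mouse libraries (C57BL/6 strain), the labels call 3 intervertebral disc degeneration and 3 wild type. The source of all is given as the disc, the cushion between neighbouring vertebrae. The series text gives an age of 21 days but speaks of retina, and neither it nor the labels say how degeneration arose or which animals gave which library. The p-values therefore rest on library-to-library spread that may be purely technical. Libraries were made from total RNA with an Illumina TruSeq RNA kit, and the labels do not say whether poly(A) RNA was selected.

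Malat1 is a long RNA held in nuclear speckles, where splicing factors gather. It ends not in an ordinary poly(A) tail but in a stretch folded into a triple helix, and RNase P makes this end by cutting off a small tRNA-like piece. Rn7sk encodes 7SK, a small RNA of RNA polymerase III that keeps the elongation kinase P-TEFb (Cdk9 with a cyclin T) inactive together with Larp7, Mepce and Hexim proteins. Rn7s2 encodes 7SL, the RNA scaffold of the signal recognition particle, which brings ribosomes to the endoplasmic reticulum. Gm26244 is an annotated small nuclear RNA (snRNA). Its 164 bases differ at 1 position from Rnu1a1, a gene for U1, the snRNA that pairs with 5′ splice sites.

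Rows located over markers of the labelled tissue held few counts, apart from that over Krt8, and the degeneration libraries did not share a single profile. Listed genes without a located row were not measured, and a located row may cover only part of its gene's exons. Of 12 listed genes of heart and striated muscle, 8 could be located, and their summed level was 41800, 52.4 and 51.0 CPM (counts scaled to a library total of 1000000) in degeneration 1 to 3 and 38700 to 40800 CPM in wild type. The 6 of 10 kidney tubule genes located summed to 49.1, 10400 and 8250 CPM in degeneration 1 to 3 and 33.3 to 45.2 CPM in wild type. The 7 of 15 disc and cartilage genes located summed to 11, 139 and 138 CPM in degeneration 1 to 3 and 16.9 to 21.9 CPM in wild type. Of these the aggrecan gene Acan was at 0 counts in all 3 degeneration libraries and at no more than 0.499 CPM in wild type, and Krt19 was at 0 in all 6. The keratin Krt8, also an epithelial gene, made up 127 and 125 CPM of the disc sum in degeneration 2 and 3. Results are therefore given with and without degeneration 1, whose muscle sum was near that of wild type, and the part of these tissue genes in the results below was not tested. Library totals were 3119215 to 3451759 counts in degeneration and 3317474 to 4009562 in wild type.

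The RNAs were named by position, because most rows of the files do not lie on the GRCm38 exons (GENCODE M21) of the gene whose name they bear. The row named Malat1 starts 50028 bases from the GRCm38 start of that gene and held 99 to 206 counts in degeneration and 120 to 236 in wild type. Malat1 itself (chromosome 19, 5795690 to 5802672, minus strand, a lincRNA) lies under the row named Ltbp3, with 3020 of its 6983 exon bases in 10 stretches. The other exon bases under that row are 347 of Gm37376, an unclassified transcript on the opposite strand within Malat1, whose reads cannot be told apart because counting used no strand option. A further 6049 of the row's 9069 bases lie on no annotated exon.

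Rn7sk (chromosome 9, 78175303 to 78175633, minus strand) lies under the row named Gm3776, with 121 of its 331 bases. The same row holds 185 exon bases of Ick, a protein kinase gene, and 568 bases on no exon. Another row with 142 bases of Ick, named Gsta4, stood at 15.1 to 18 CPM in degeneration and 15.4 to 19 CPM in wild type. Whether the counts of the row named Gm3776 come from Rn7sk was not tested. Rn7s2 (minus strand) lies whole under the row named Nemf. That row also holds 303 bases of the processed pseudogene Gm18113, 80 and 70 bases of the predicted miRNAs Gm47299 and Gm47305 that lie within or across the end of Rn7s2, and 9943 bases on no exon. Gm26244 (minus strand) has a row of its own name at the same GRCm38 position, all 164 bases, with no other exon under it. It lies in the gene Rock1, on the same strand and outside its exons.

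The parts of Malat1 and Rn7sk that bear on the counting are shown from GENCODE M21 transcripts (GRCm38, read 5′ to 3′ as DNA letters). The Malat1 stretch, chr19:5795902-5796091, lies inside the counted row and holds the end of the mature RNA. Capitals mark the U-rich motifs TTTTTCTTTT and TTTTGCTTTT and the A-rich tract of the triple helix, and the tRNA-like piece follows the tract. The Rn7sk stretch, chr9:78175303-78175602, covers bases 32 to 331, and capitals mark the 121 bases under the row, the 3′ end of the RNA.
Malat1: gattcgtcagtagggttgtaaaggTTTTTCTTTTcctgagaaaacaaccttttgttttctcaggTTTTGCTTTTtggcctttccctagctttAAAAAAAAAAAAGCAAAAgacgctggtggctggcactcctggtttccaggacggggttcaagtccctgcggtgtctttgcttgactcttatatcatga
Rn7sk: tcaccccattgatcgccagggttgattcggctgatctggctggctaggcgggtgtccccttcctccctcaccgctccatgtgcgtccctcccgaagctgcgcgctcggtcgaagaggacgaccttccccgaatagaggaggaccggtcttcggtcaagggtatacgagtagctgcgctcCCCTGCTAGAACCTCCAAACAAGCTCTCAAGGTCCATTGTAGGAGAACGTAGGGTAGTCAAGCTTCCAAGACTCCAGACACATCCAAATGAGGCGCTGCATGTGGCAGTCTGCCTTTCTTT

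On the RNA strand of Malat1, TTTTTCTTTT occurs 3 times, TTTTGCTTTT 1 time and the A-rich tract AAAAAAAAAAAAGCAAAA 1 time. Of 53302 windows of 190 bases in other lincRNA transcripts, 0.375% hold TTTTTCTTTT, 0.118% hold TTTTGCTTTT and 0 hold the tract. The opposite strand was not searched. Rn7s1 is identical to Rn7s2 over 300 bases and lies under no row. A read pair that fits inside both cannot be placed, so the Rn7s2 value is uncertain, and counts of the pair of genes cannot be told apart by sequence. For Gm26244, 32 annotated snRNA copies have at least 90% identity, and reads that do not span a differing base have the same limit. No other annotated RNA of like length reached 90% identity to Rn7sk.

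**Figure D1:**
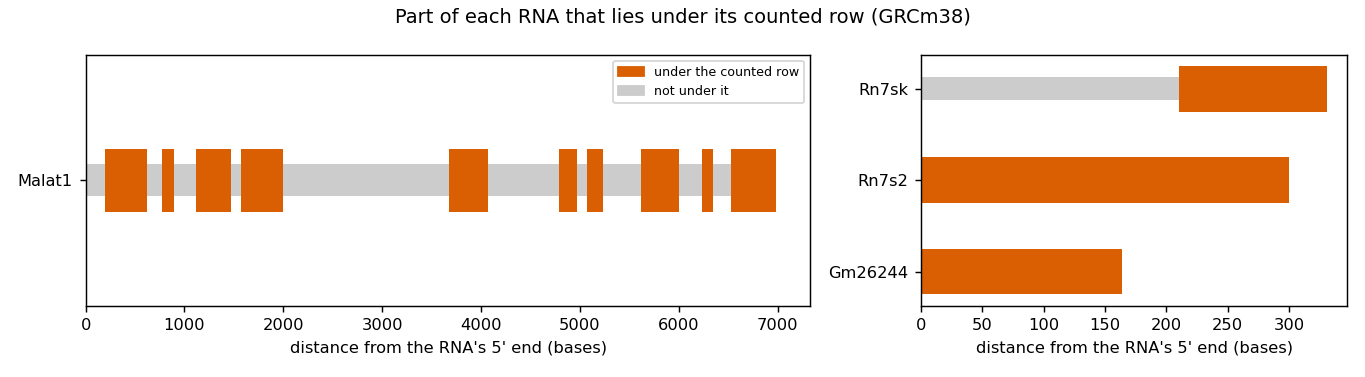
Parts of Malat1 (left), and of Rn7sk, Rn7s2 and Gm26244 (right), that lie under the counted row, drawn along each RNA from its 5′ end in bases. Malat1 is covered in 10 stretches (3020 of 6983 bases), Rn7sk over its last 121 bases, and the other two whole.

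Together the 4 rows took 12.5%, 16.1% and 18.4% of all counts in degeneration 1 to 3 and 13.1%, 15.3% and 14.2% in wild type 1 to 3. The share was 15.7% ± 2.98 in degeneration and 14.2% ± 1.12 in wild type (SD, n = 3 each), a difference of 1.52 percentage points (exact two-sided permutation test, p = 0.5, where 3 against 3 cannot go below 0.1). The highest and the lowest shares were both in degeneration libraries, so the groups overlapped. When the 20 most abundant other rows were left out of the total, the shares were 16.4%, 16.6% and 19% in degeneration and 16.5%, 19.7% and 18.1% in wild type, and the sign of the difference turned, at -0.74 percentage points (exact permutation test, p = 0.6). Those 20 rows held 23.7%, 3.28% and 2.79% of the counts in degeneration 1 to 3 and 20.8% to 22.4% in wild type.

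The Malat1 row held the most counts of the 4 in every library. It held 274664, 407033 and 446653 counts in degeneration 1 to 3 and 389476, 369288 and 337097 counts in wild type 1 to 3, which is 8.65%, 11.8% and 14.3% of counts against 9.71%, 10.3% and 10.2%. Degeneration 1 was the lowest library and degeneration 3 the highest, and the 3 wild type libraries lay between them. It was the most abundant row in degeneration 2 and 3 and had rank 2 in the other 4 libraries, behind the row named Ttn. Its mean was 115864 ± 28414 CPM in degeneration and 100669 ± 3168 CPM in wild type (SD, n = 3 each). In bulk RNA, fewer cells of a type and less RNA per cell cannot be told apart.

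Much of the spread of Malat1 went with the scaling. TMM scaling, which sets libraries so that most rows are level, gave 97826, 99933 and 119328 CPM in degeneration 1 to 3 and 101184, 114603 and 109614 CPM in wild type 1 to 3. The highest library was then 1.22 times the lowest, against 1.66 times by library totals. The TMM factors behind this were 0.884, 1.18 and 1.2 in degeneration 1 to 3 and 0.901 to 0.96 in wild type. The SD of log2 CPM over the 6 libraries was 0.252 for Malat1. Among the 42 rows that averaged 1000 CPM or more, this SD has rank 6 from the lowest. The 42 include rows over muscle genes. That over Myh6 was at 19000, 2.03 and 1.6 CPM in degeneration 1 to 3 and 14700 to 17400 CPM in wild type. The rank therefore does not show steadiness against rows in general.

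The row over Rn7sk, the gene of 7SK, varied about as much. The Rn7sk row held 63887, 106874 and 80160 counts in degeneration 1 to 3 and 80710, 66484 and 73068 counts in wild type 1 to 3, or 20115, 30962 and 25699 CPM against 20129, 18590 and 22025 CPM. Degeneration 2 and 3 stood above every wild type library, and degeneration 1 lay among them, so the groups overlapped. Under TMM scaling degeneration 3 also came to lie among the wild type libraries, at 21416 CPM against 20632 to 23760 CPM, and degeneration 2 stayed highest at 26239 CPM. The SD of log2 CPM was 0.275, rank 7 of the 42 abundant rows, with the same limit as for Malat1.

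**Figure D2:**
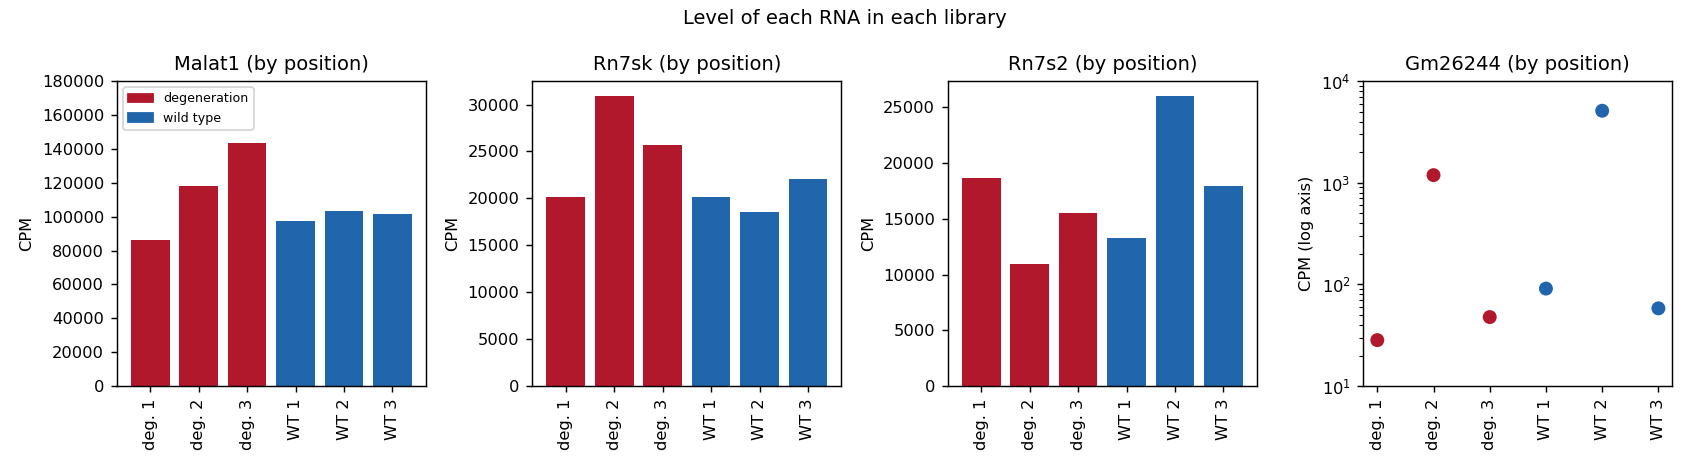
CPM of the row over each RNA in each library, by library total (bars from 0, with Gm26244 as points on a log axis). Red is degeneration and blue is wild type. Malat1 and Rn7sk are highest in degeneration 3 and 2, Rn7s2 in wild type 2, and Gm26244 stands at 1188 CPM in degeneration 2 and 5104 CPM in wild type 2 but at 28 to 91 CPM elsewhere.

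The Rn7s2 row went another way. Of its 10549 bases, 300 are of Rn7s2 and 9943 lie on no exon, and whether its counts come from 7SL was not tested. The Rn7s2 row held 59345, 37637 and 48511 counts in degeneration 1 to 3 and 53359, 93084 and 59445 counts in wild type 1 to 3, or 18685, 10904 and 15552 CPM against 13308, 26027 and 17919 CPM. Degeneration 2 was lowest and wild type 2 highest, and the groups overlapped, with wild type 1 below 2 of the degeneration libraries. TMM scaling widened the gap between the extremes, to 3.13 times against 2.39 times by library totals. The ratio of Malat1 to Rn7s2 counts, which no scaling alters, was 4.63, 10.8 and 9.21 in degeneration 1 to 3 and 7.30, 3.97 and 5.67 in wild type 1 to 3. The ratio of Rn7sk to Rn7s2 was 1.08, 2.84 and 1.65 in degeneration and 1.51, 0.714 and 1.23 in wild type. That of Malat1 to Rn7sk kept to a narrower range, 4.30, 3.81 and 5.57 in degeneration and 4.83, 5.55 and 4.61 in wild type. Over the 6 pairs of members the exact two-sided permutation p was 0.3 to 0.5, and 0.5 for each after Benjamini-Hochberg adjustment over the 6, with 0.1 the smallest p possible before it.

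**Figure D3:**
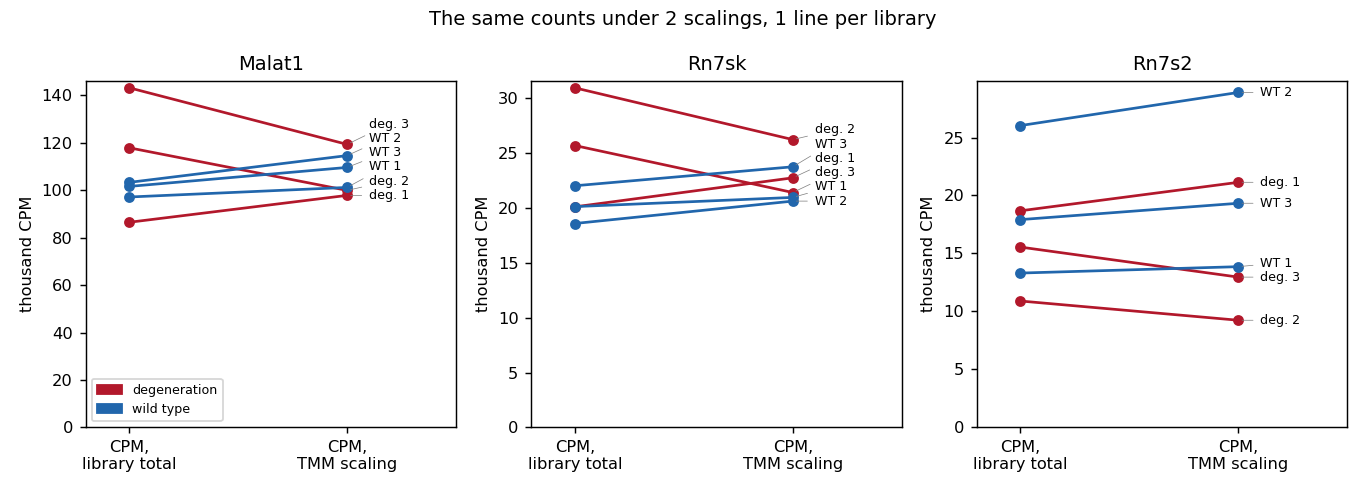
Level of the rows over Malat1, Rn7sk and Rn7s2 in units of 1000 CPM, 1 line per library. Left ends are by library total and right ends under TMM scaling, with red for degeneration and blue for wild type. The lines of Malat1 and Rn7sk draw together under TMM, from 1.66 to 1.22 times and from 1.67 to 1.27 times between the extremes, and those of Rn7s2 spread from 2.39 to 3.13 times.

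Gm26244, the U1 copy, was at a high level in 1 library of each group. It had 90, 4102 and 149 counts in degeneration 1 to 3 and 365, 18255 and 193 counts in wild type 1 to 3, which is 28.3, 1188 and 47.8 CPM against 91.0, 5104 and 58.2 CPM. Wild type 2 stood 56.1 times above the next wild type library, and degeneration 2 stood 24.9 times above the next degeneration library. The groups overlapped, and the mean ± SD, 421 ± 664 CPM in degeneration and 1751 ± 2904 CPM in wild type (n = 3 each), hides this. Without the libraries numbered 2, the means were 38.1 CPM in degeneration and 74.6 CPM in wild type. In its rank among rows Gm26244 went as high as 9 in wild type 2 and 28 in degeneration 2, and was between 1606 and 4899 elsewhere.

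Its host gene and the rows over U1 copies followed it in part or not at all. Rock1, the host of Gm26244, has an in-place row that was at 717, 657 and 711 CPM in degeneration 1 to 3 and 768, 674 and 753 CPM in wild type 1 to 3. Its highest library was 1.17 times its lowest, against 180 times for Gm26244. Of the 32 copies, 5 lie under a row. The copy Gm25679, also 1 base different, lies whole under the row named Eapp. Of that row's 4448 bases, 164 are of Gm25679 and 95 of the pseudogene Gm2395. Whether the counts of the Eapp row come from Gm25679 was not tested. That row was at 134, 53.3 and 95.9 CPM in degeneration 1 to 3 and 75.3, 169 and 113 CPM in wild type 1 to 3, so it was highest in wild type 2, as Gm26244 was, and lowest in degeneration 2, where Gm26244 was high. Gm22042 had the same extremes at far lower levels, 2.83, 0.29 and 1.92 CPM in degeneration 1 to 3 and 3.99, 10.3 and 5.12 CPM in wild type 1 to 3. Rnu1b2 was under or at the floor of 3 counts in every library, with 0.869 CPM in degeneration 2 and 0.839 CPM in wild type 2 as its highest values. The other 2 copies stood at 0 CPM in degeneration and no more than 0.301 CPM in wild type. Gm25679 and Rock1 were picked for mention with their values already known.

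**Figure D4:**
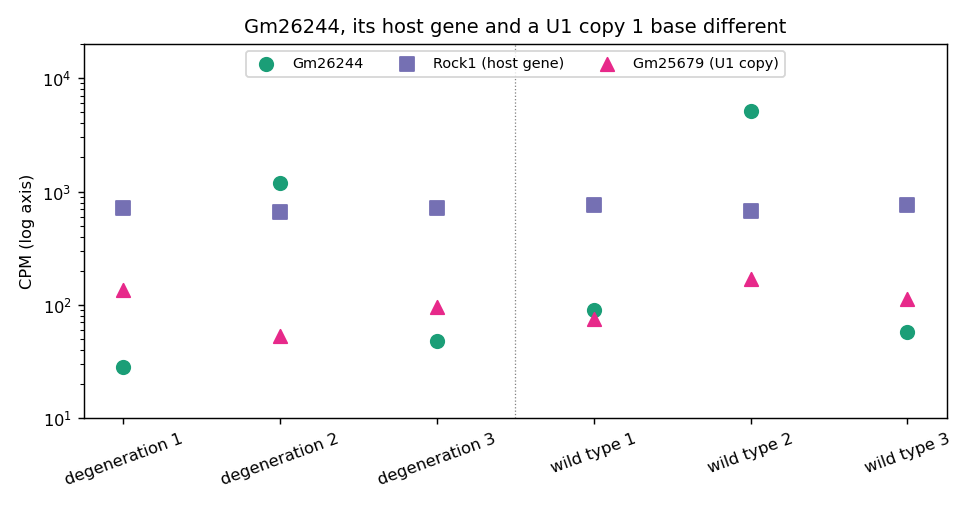
CPM (log axis) of Gm26244, its host gene Rock1 and the whole row named Eapp, which holds the U1 copy Gm25679, in each library. Degeneration is left of the dotted line and wild type right of it. Gm26244 is above Rock1 in degeneration 2 and wild type 2 and far below it in the other 4 libraries, while Rock1 stays between 657 and 768 CPM.

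Levels of different RNAs can be set side by side only per length, and here the length is itself uncertain, since 3 of the rows also span bases outside the RNA. With a row's counts divided by the length of the RNA under it, Malat1 stood at 28635 to 47415 CPM per kb, Rn7sk at 153634 to 255886, Rn7s2 at 36346 to 86758 and Gm26244 at 173 to 31124 CPM per kb over the 6 libraries. Divided by the length of the whole row, the ranges were 9536 to 15789 CPM per kb for Malat1, 21270 to 35426 for Rn7sk, 1034 to 2467 for Rn7s2 and 173 to 31124 for Gm26244. The order of the 4 differed between these lengths, so none is given.

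The comparison of degeneration with wild type was fitted over the whole table (edgeR quasi-likelihood test, 14967 rows tested, Benjamini-Hochberg adjustment). It called 0 rows (0%), with 2598 at an unadjusted p under 0.05, and so 0 of the 4 members, all of which were tested. Log2 fold changes (± SE) of degeneration over wild type were -0.04 ± 2.11 for Malat1 (adjusted p = 0.993), 0.11 ± 0.966 for Rn7sk (adjusted p = 0.955), -0.52 ± 0.93 for Rn7s2 (adjusted p = 0.765) and -2.43 ± 2.11 for Gm26244 (adjusted p = 0.541). These SE came from the test statistic, which draws on the spread of other rows, so they are not the spread of the member's own row. Malat1 and Gm26244 had the same SE, though their SD of log2 CPM was 0.252 and 2.99. The common dispersion, a measure of spread between libraries over all rows, was 0.173, and 0.0229 without degeneration 1. Scaled by library totals alone, which moved the median of all rows to 0.22, the value was 0.20 for Malat1, 0.34 for Rn7sk, -0.34 for Rn7s2 and -2.05 for Gm26244. None of the 4 had groups without overlap in CPM, which 19.8% of tested rows did. DESeq2, which called 952 of 18612 rows (5.11%), gave -0.06 ± 0.168 for Malat1 (adjusted p = 0.899), 0.09 ± 0.183 for Rn7sk (0.837) and -0.53 ± 0.467 for Rn7s2 (0.587), and no test for Gm26244, which it set aside.

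Without degeneration 1 the same edgeR test called 8702 of 17272 rows (50.4%), 4226 of them lower (24.5%), and 1 of the 4 members, Rn7s2. Its log2 fold change was then -0.96 ± 0.288 (adjusted p = 0.0138), while the range across the 15 settings tried was 0.0138 to 0.954. By CPM the groups still overlapped, at 10904 and 15552 in degeneration 2 and 3 and 13308 to 26027 in wild type. Under TMM scaling, with the factors from all 6 libraries, they did not, at 9240 and 12960 CPM in degeneration 2 and 3 and 13862 to 28887 CPM in wild type. How many of all rows lack overlap between these libraries was not counted. Malat1 was at -0.05 ± 0.216 (adjusted p = 0.869) and Rn7sk at 0.06 ± 0.194 (adjusted p = 0.815) in this fit. Gm26244 was at -1.96 ± 1.54 (adjusted p = 0.321). It rested on single libraries: without wild type 2 it was 2.12 ± 1.76 (adjusted p = 0.614) and without degeneration 2 it was -5.75 ± 2.47 (adjusted p = 0.664).

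**Figure D5:**
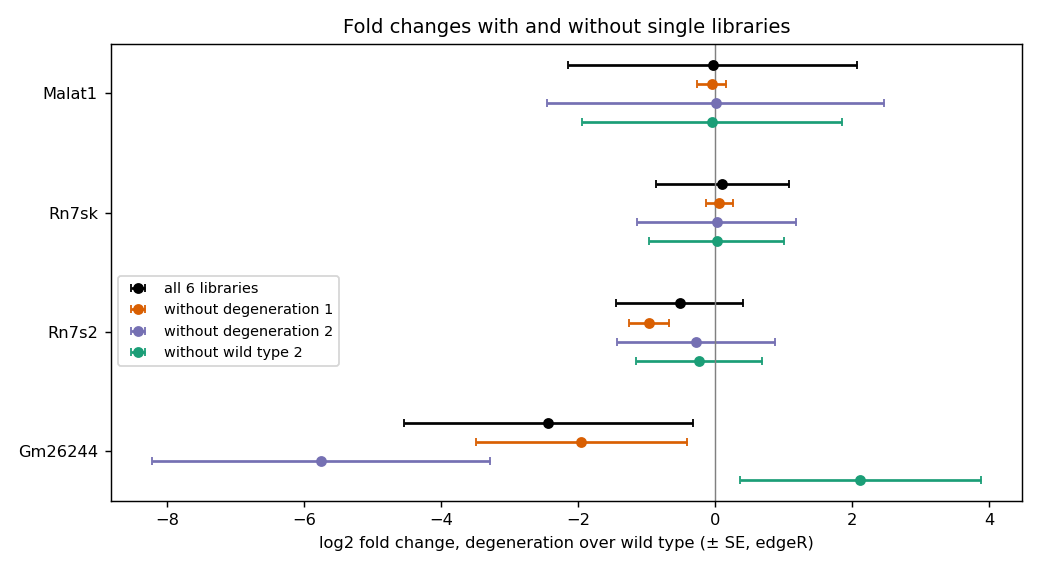
Log2 fold change of degeneration over wild type (x axis, ± SE, edgeR) for the 4 RNAs, with all 6 libraries and without 1 library. Only Rn7s2 without degeneration 1 (-0.96 ± 0.288) passed the threshold among the fits drawn, and Gm26244 changes sign without wild type 2.

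The genes that work with these RNAs were located by position as well, and 0 of 5411 located genes (0%) passed with all 6 libraries, 1056 at an unadjusted p under 0.05. Their median log2 fold change was 0.0003. Without degeneration 1, 3162 of 5979 passed (52.9%), with a median of 0.01, of which 26.1% of those tested were lower and 26.8% higher. Groups without overlap in CPM were seen in 9.41% of the 5411 with degeneration lower and in 11.5% with degeneration higher. The lists were chosen with earlier results of these data known.

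Of the 7 proteins of the 7SK particle and P-TEFb listed, 3 were located and tested, with a median of -0.08. Without degeneration 1, 1 of them, Ccnt2, fell, beside 26.1% lower and 26.8% higher of all located genes. By CPM its degeneration 2 and 3 values lay close to wild type. The fit used TMM scaling, which over all 6 libraries had factors of 1.18 and 1.2 in degeneration 2 and 3. Ccnt2 encodes a cyclin T partner of Cdk9 and was at 129, 143 and 143 CPM in degeneration 1 to 3 and 144, 157 and 148 CPM in wild type (log2 fold change -0.33 ± 0.152, adjusted p = 0.292; without degeneration 1 -0.48, adjusted p = 0.00856; edgeR). Mepce, which caps 7SK, was at 44.7, 87.8 and 78.5 CPM in degeneration and 55.9, 46.1 and 41.9 CPM in wild type (0.30 ± 0.197, adjusted p = 0.417). Ccnt1, the other cyclin T, stood at 220 to 265 CPM in degeneration and 205 to 239 CPM in wild type.

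Of 11 genes of the signal recognition particle and its receptor, 6 were located and 4 tested, with a median of 0.08, and 0 passed with or without degeneration 1. Srpr, the receptor's alpha subunit, was at 70.8, 93.9 and 96.5 CPM in degeneration and 66.6, 64.3 and 50.6 CPM in wild type (0.30 ± 0.15, adjusted p = 0.316, edgeR). Srp9, a particle protein bound to 7SL, was at 35.6, 27.2 and 26.6 CPM in degeneration and 24.4, 21.8 and 35.9 CPM in wild type, with overlap.

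Of 18 nuclear speckle genes, 7 were located and tested, with a median of -0.14. Without degeneration 1, 1 of them fell, beside 26.1% lower of all located genes. That was Rnps1, an RNA-binding protein of the exon junction complex. It was at 74.9, 44.3 and 43.6 CPM in degeneration and 70.1, 69.1 and 64.2 CPM in wild type (-0.47 ± 0.357, adjusted p = 0.471; without degeneration 1 -1.03, adjusted p = 0.000174; edgeR). Srsf3, a splicing factor, was at 45, 37.7 and 46.8 CPM in degeneration and 38.2, 47.3 and 46.7 CPM in wild type, with overlap (-0.23 ± 0.227, adjusted p = 0.568, edgeR). Sfpq, the 1 paraspeckle gene of 6 that was located, stood at 90.4 to 149 CPM in degeneration and 99.8 to 119 CPM in wild type. Zc3h3, the 1 of 4 genes listed for the 3′ end of Malat1 that was located, was at 24.6, 42.3 and 55.5 CPM in degeneration and 28.0 to 30.7 CPM in wild type, and neither passed in either fit.

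Of 20 other long non-coding RNAs listed, 8 were located and 7 tested, with a median of -0.40. Without degeneration 1, all 8 were tested, of which 3 fell and 1 rose, beside 26.1% lower and 26.8% higher of all located genes. Those that fell were the imprinted RNAs H19, Rian and Meg3, while Kcnq1ot1, also imprinted, stood at 232 to 426 CPM in degeneration and 276 to 342 CPM in wild type. H19 was at 62.7 and 1.45 CPM in degeneration 1 and 2, at 0 counts in degeneration 3, which allows up to 0.962 CPM, and at 114, 177 and 87.7 CPM in wild type. Rian was at 34.3, 4.35 and 5.45 CPM in degeneration and 58.9, 48.9 and 45.8 CPM in wild type. Meg3 was at 12, 0.579 and 1.6 CPM in degeneration and 22.7, 22.4 and 12.7 CPM in wild type. In each of these 3, which are named because they fell without degeneration 1, degeneration 1 also lay below the wild type libraries; 9.41% of all located genes had such groups. With all 6 libraries the log2 fold change was -2.53 ± 1.7 for H19 (adjusted p = 0.426), -1.84 ± 0.911 for Rian (adjusted p = 0.311) and -2.09 ± 1.05 for Meg3 (adjusted p = 0.314, edgeR). Snhg11, the 1 that rose without degeneration 1 (7.37, adjusted p = 4.39e-08), was at 1.89, 197 and 219 CPM in degeneration and 0 to 1.68 CPM in wild type. Kcnq1ot1 and Snhg11 were named with their values known. Beside these values stand the muscle and kidney sums given above, which part the same libraries.

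Of 19 small RNAs of ribonucleoprotein particles listed, 2 besides the members were located and 1 tested. That was Rmrp, the RNA of the ribonuclease MRP that processes ribosomal RNA, whose row lies on its own 281 bases. It was at 134, 150 and 100 CPM in degeneration 1 to 3 and 281, 301 and 167 CPM in wild type 1 to 3. All degeneration libraries lay below all wild type ones, as in 9.41% of all located genes. Its log2 fold change was -1.15 ± 0.322 (unadjusted p = 0.0116, adjusted p = 0.233, edgeR). It fell without degeneration 1 (-1.40, adjusted p = 0.00089, edgeR), as did 26.1% of all located genes. A stretch of 124 of these bases is also an exon of Ccdc107 and lies under the row of that name, and pairs touching both rows were counted in neither, so the level is uncertain.

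Of 29 genes for making and assembling snRNAs, 12 were located and tested, with a median of -0.21. Without degeneration 1, 3 of the 12 fell (Snapc1, Ints10 and Snrpd2) and 0 rose, beside 26.1% lower and 26.8% higher of all located genes. Ints6, a subunit of the Integrator complex that cuts snRNA 3′ ends, had the smallest p with all 6 libraries. It was at 13.9, 15.6 and 16.7 CPM in degeneration and 6.98, 9.23 and 9.95 CPM in wild type, without overlap, as in 11.5% of all located genes with degeneration higher (0.60 ± 0.231, adjusted p = 0.246, edgeR). Snapc1, of the complex that starts snRNA transcription, was at 29.3, 29.8 and 26.0 CPM in degeneration and 29.4, 28.2 and 43.7 CPM in wild type, and fell without degeneration 1 (-0.68, adjusted p = 0.0289, edgeR). Of 15 genes of RNA polymerase III and its factors, 4 were located and tested, with a median of 0.003, and 0 passed in either fit.

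The rows most like each member over the 6 libraries were sought among the 1978 located rows that averaged 50 CPM or more, by the root mean square difference of centred log2 CPM. For Malat1 these lay over Stk3 (0.0479), Nup160 (0.0531) and Smarcc2 (0.0637), where the median row was at 0.345. For Rn7sk they lay over Agfg1 (0.0564), Bag1 (0.0711) and Prrc2b (0.0722), with a median of 0.34. For Rn7s2 they were less close, over Ppp1r12a (0.199), Pdgfb (0.204) and Gba2 (0.207). For Gm26244 the nearest, over Sbno2 at 2.34, was little nearer than the median of 2.76. Among the members themselves, Malat1 and Rn7sk were closest to each other (0.195), and Gm26244 differed from each of the others by 2.68 to 2.73. These are descriptions over 6 libraries that share their totals.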

How the data were processed

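RNA sequencing was done on 6 libraries, which the sample labels place in the degeneration (3) and wild type (3) groups. The deposited values are raw counts, made with featureCounts 2.0.1 from paired reads with both ends mapped and none chimeric, per gene name over its exons, without a strand option, per the file headers. Pairs marked as mapping to several places are left out by that tool's default. The build is not given in the headers; Bowtie 0.12.2, mm8 and mm9 are named without a role, per the submitters' processing notes. A series-wide table has 12 value columns whose names match no sample, and they are not used here.

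The rows' positions were taken as GRCm38 and laid over GENCODE M21 exons (bedtools 2.31.1, Python 3.11.15). A row was given a gene's name if 90% of its length lay on its own gene, or if 80% of the exon bases under it, and at least 100, lay on 1 gene (13241 of 53546 rows, 49.8% to 58.7% of counts). The rows named Gm3776 and Nemf did not meet this rule. They hold 185 exon bases of Ick against 121 of Rn7sk, and 303 of Gm18113 against 300 of Rn7s2. Rn7sk and Rn7s2 were taken as members because they lie under these rows. CPM used each library's total. The test was edgeR 4.0.16 (R 4.3.3), quasi-likelihood, TMM, filterByExpr, no covariate, adjusted over all rows, threshold 0.05; SE came from the test statistic. The test was tried on counts simulated from the means and spread of wild type alone. That setting lacks the mixed profiles of the degeneration libraries, so it does not show what the test can find here. DESeq2 1.42.0, other scalings, other filters, the replicate block, and each library left out were alternatives. Located genes were fitted the same way with library totals over all rows, the members keeping their rows. Log2 CPM for likeness had a pseudocount of 0.5. Identity was counted over a global alignment of transcripts within 10% of the member's length.

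A count of 3, taken as the floor, is 0.869 to 0.962 CPM in degeneration and 0.748 to 0.904 CPM in wild type; floors cover counting error only, as reads are not independent molecules. The Wilson 95% interval of the largest share, Malat1 in degeneration 3, was 14.28% to 14.36%. Members, lists and the rule for named genes (up to 4 per list with the smallest p, and the 3 most alike rows per member) were chosen with earlier results of these data known. Some items, among them a sequence, are not reported here.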

Additional observations from a re-analysis of the deposited data

How the results depend on the processing

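With all 6 libraries, 0 rows passed under every scaling and filter tried with edgeR, and under the replicate block. DESeq2 called 952 rows, and leaving out 1 library gave 0 to 8702, the upper value without degeneration 1 alone. Rn7sk kept its sign and stayed short of the threshold in every fit, from 0.025 to 0.18 with 1 library left out and at 0.34 by library totals alone. Malat1 turned sign by library totals alone (0.20) and ran from -0.13 to 0.0085 with 1 library left out. Rn7s2 passed without degeneration 1 (-0.96) and ran from -0.96 to -0.23. Gm26244 ran from -5.75 to 2.12, the upper value without wild type 2; DESeq2 gave it no value. The difference in summed share was 0.139 to 3.10 percentage points with 1 library left out and -0.74 without the 20 most abundant other rows. The cause of these changes was not tested. With the replicate block, Gm26244 was at -1.57 ± 0.532 (adjusted p = 0.386) and Rn7s2 at -0.54 (adjusted p = 0.838), and no call changed. Pearson's r of deviations from the group means across rows was -0.0795, 0.0992 and -0.122 for same-numbered libraries 1 to 3. For differently numbered libraries it ran from -0.153 to 0.147. Since degeneration 1 differed in profile from degeneration 2 and 3, these values cannot show whether same-numbered libraries were prepared together. The numbers stand only in the titles and were not taken as pairs. Log2 ratios between members moved by less than 1 SD with 1 library left out, but those to Gm26244 turned sign, from -0.496 to 3.17 for Malat1, -0.428 to 3.20 for Rn7sk and -0.759 to 2.92 for Rn7s2. Depth limits the U1 copies at or under the floor of 3 counts, but not the members.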

Other observations

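Outside the members, rows over annotated small RNAs held few counts. Of 19 listed small RNAs of ribonucleoprotein particles, 2 besides the members were located, and 5 of the 32 Gm26244 copies lie under a row. Pairs marked as mapping to several places were left out too. The shares below therefore do not show how much small RNA the libraries held. Rows with at least 80% of their exon bases on snoRNA genes (81 rows) held 0.0302%, 0.0332% and 0.0344% of counts in degeneration 1 to 3 and 0.0261% to 0.0298% in wild type. The 94 such rows over snRNA genes, without Gm26244, held 0.0259%, 0.0515% and 0.0486% in degeneration and 0.0282% to 0.0295% in wild type. The 1143 rows over lincRNA genes, without Malat1, held 0.429%, 0.491% and 0.51% in degeneration and 0.35% to 0.431% in wild type. The 15 rows over misc_RNA genes, the class of Rn7sk and Rn7s2, held 0.0339%, 0.0178% and 0.0175% in degeneration 1 to 3, without those members, and 0.042% to 0.0449% in wild type. These classes were summed without a test.

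The row named Esp16, which lies over the ribosomal RNA gene CT010467.1 (192 bases) and the lincRNA Gm42418 (196 bases), parted the libraries in yet another way. It stood at 627, 2080 and 2270 CPM in degeneration 1 to 3 and 2040, 2210 and 633 CPM in wild type 1 to 3, so degeneration 1 and wild type 3 were both low.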
